A study of Mus musculus with 12 samples.

Results

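The genes described here are *Nfkb1*, *Nfkb2*, *Rela*, *Relb*, *Nfkbia*, *Nfkbie*, *Nfkbiz*, *Tnfaip3*, *Bcl3* and *Birc3*, which encode subunits of NF-kappaB and proteins that regulate it. They were chosen by name, as the rows whose gene symbol equals one of these 10, and all 10 were listed in both deposited tables, among 15768 genes common to them. Each was counted in every library, and all 10 passed the filter on low counts in each comparison.

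RNA-seq was done on glomerular endothelial cells (GEC) sorted from digested glomeruli of C57BL/6 mice aged 4 months, all carrying the TekCre tdTomato reporter. In these mice Cre is driven by Tek, the gene of an endothelial receptor tyrosine kinase, and switches on the red fluorescent protein tdTomato (tdT). Wild type (WT) mice were compared with Alport syndrome (AS) mice that are Col4a5 -/- and so lack the α5 chain of type IV collagen. From each of 3 mice of a genotype a dimtdT and a brighttdT library was made, which gave 12 libraries in 4 groups of 3 (WT-dimtdT, AS-dimtdT, WT-brighttdT and AS-brighttdT).

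NF-kappaB is a family of dimeric transcription factors. In resting cells IkappaB proteins hold the dimers in the cytoplasm, and signals from cytokine or innate immune receptors lead to destruction of the IkappaB by the IKK kinases in the canonical route, or to processing of the p100 product of *Nfkb2*, partner of RelB, in the non-canonical route. Several of the induced genes encode the inhibitors themselves, so that transcripts such as *Nfkbia* and *Tnfaip3* are known as feedback genes of the pathway. In endothelium the pathway is known for inducing leukocyte adhesion molecules, and in leukocytes for inducing cytokines.

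The stretch before the start site is shown for the genes in which it held the kappaB consensus, the 10-base sequence that NF-kappaB dimers bind. Such sites are known from genes that the pathway induces, so their share among genes named as its feedback inhibitors is a description close to what the genes were named for. Sequences were taken from the RefSeq promoter table on GRCm38.p6, which held 7 of the 10 genes (*Nfkb2*, *Rela*, *Nfkbia*, *Nfkbie*, *Tnfaip3*, *Bcl3* and *Birc3*) with 10 start sites, and 250 bases before each start site were searched on both strands. A match was found in 4 of the 7 genes (57.1%) and in 6 of the 10 windows, against 8.23% of 27025 genes and 7.25% of 32851 windows in the whole table. The windows of *Rela*, *Bcl3* and *Birc3* held no match, which says only that these letters were not in those 250 bases. The matches of *Nfkbia* and *Nfkbie* lay in stretches free of annotated exons, which are printed whole, 5′ to 3′ on the strand of the gene and ending at the base before the start site, with the match in capitals.
Nfkbia, chr12:55492648-55492897, minus strand: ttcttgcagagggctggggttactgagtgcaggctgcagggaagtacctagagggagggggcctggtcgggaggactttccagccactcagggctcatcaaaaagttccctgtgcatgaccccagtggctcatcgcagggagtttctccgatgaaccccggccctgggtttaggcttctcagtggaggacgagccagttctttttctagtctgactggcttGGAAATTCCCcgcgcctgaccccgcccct
Nfkbie, chr17:45555450-45555699, plus strand: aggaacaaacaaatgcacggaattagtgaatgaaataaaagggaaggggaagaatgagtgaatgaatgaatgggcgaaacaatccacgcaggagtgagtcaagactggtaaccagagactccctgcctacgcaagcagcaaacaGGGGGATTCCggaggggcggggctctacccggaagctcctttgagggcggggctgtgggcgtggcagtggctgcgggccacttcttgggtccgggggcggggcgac

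For *Nfkb2* and *Tnfaip3* only 30 bases around each match are shown, since all windows with a match but that of the second *Nfkb2* start site reached into annotated exons. *Nfkb2* held matches at each of 3 start sites, and at the first of them a further match overlapped the one printed. *Tnfaip3* held both of its matches at the second of 2 start sites.
Nfkb2, at the first start site, chr19:46304688-46304717, plus strand: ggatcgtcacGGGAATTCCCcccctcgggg
Nfkb2, at the first start site, chr19:46304716-46304745, plus strand: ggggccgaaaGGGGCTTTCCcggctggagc
Nfkb2, at the second start site, chr19:46305449-46305478, plus strand: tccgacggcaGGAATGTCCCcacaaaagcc
Nfkb2, at the third start site, chr19:46305695-46305724, plus strand: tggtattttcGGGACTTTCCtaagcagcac
Tnfaip3, at the second start site, chr10:19015516-19015545, minus strand: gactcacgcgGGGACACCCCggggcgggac
Tnfaip3, at the second start site, chr10:19015403-19015432, minus strand: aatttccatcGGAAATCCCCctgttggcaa

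The label of the libraries was set against marker genes before the results. Levels are given as CPM, the counts of a gene scaled to a common library size with the TMM method over all 12 libraries. The 10 endothelial markers, *Pecam1*, *Cdh5* and *Kdr* among them, summed to between 10110 and 17450 CPM in the brighttdT libraries, but to between 678 and 1263 CPM in the WT-dimtdT and between 218 and 298 CPM in the AS-dimtdT libraries. The 10 leukocyte markers, with the pan-leukocyte gene *Ptprc*, summed to between 7292 and 12160 CPM in the WT-dimtdT and between 12500 and 13110 CPM in the AS-dimtdT libraries, against 76.5 to 118 CPM in WT-brighttdT and 144 to 173 CPM in AS-brighttdT. *Cd3e* and *Nkg7*, of T and cytotoxic cells, were not listed in the brighttdT table. The dimtdT libraries thus went against their endothelial label by these lists, and the brighttdT libraries did not. But the 5 mesangial and mural markers (*Tagln* listed in brighttdT alone) summed higher in brighttdT than in dimtdT. They had 375 to 787 CPM in WT-brighttdT and 407 to 762 CPM in AS-brighttdT. In WT-dimtdT they had 116 to 155 CPM and in AS-dimtdT 47.3 to 95.1 CPM. *Col4a5* itself had a mean of 59.6 CPM in WT-dimtdT and 2.32 CPM in AS-dimtdT, and 6.68 and 4.64 CPM in WT- and AS-brighttdT. It did not separate the genotypes in brighttdT, where the lowest WT library had 4.92 CPM and the highest AS library 6.79 CPM (log2 fold change -0.60, adjusted p = 0.495 by edgeR's quasi-likelihood test), so the genotype labels of those libraries were not checked by it. Immediate early genes, which cell isolation can switch on, summed to 8016 to 11600 CPM in the dimtdT and 26420 to 47600 CPM in the brighttdT libraries. Counts on genes per library ranged from 11440169 to 15074909.

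**Figure D1:**
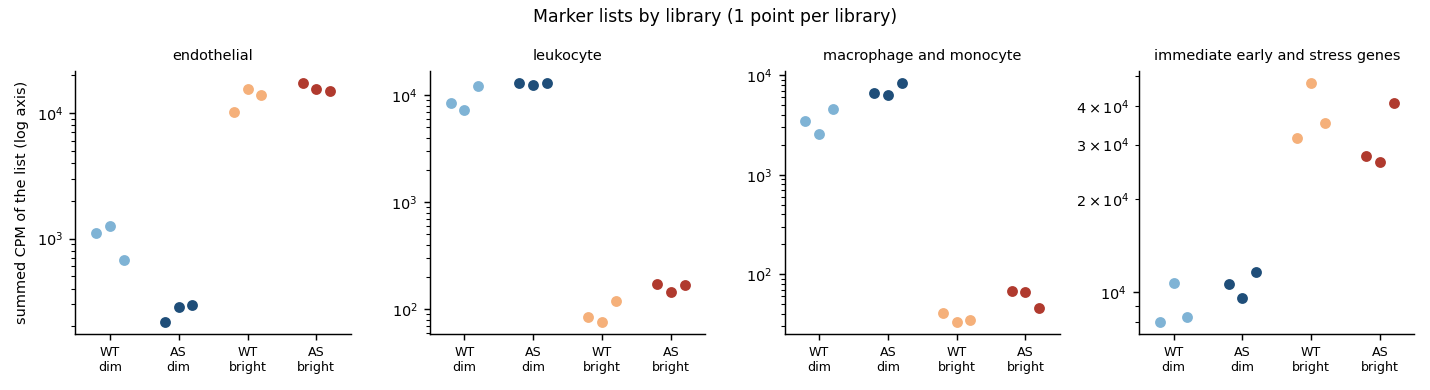
Summed CPM of 4 marker lists (log axes), 1 point per library and 1 column per group. Endothelial and immediate early genes were higher and leukocyte and macrophage genes lower in every brighttdT library than in every dimtdT library.

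To order the genes by level, the RPKM values (counts scaled to gene length and library size) were read within each group. *Nfkbia*, which encodes IkappaBα, stood first in all 4 groups, with a deposited RPKM of 690 ± 86.0 in WT-dimtdT, 997 ± 24.9 in AS-dimtdT, 456 ± 70.1 in WT-brighttdT and 357 ± 90.7 in AS-brighttdT (mean ± SD, n = 3). No library of it came near the next gene. In the dimtdT groups the second place was held by *Nfkbie*, the gene of IkappaBε, at 188 ± 72.3 RPKM in WT and 310 ± 52.9 RPKM in AS (SD, n = 3). In the brighttdT groups it was held, on this scale, by *Rela*, the gene of the p65 subunit, at 49.5 ± 6.83 RPKM in WT and 57.5 ± 6.19 RPKM in AS (SD, n = 3), while *Nfkbie* had 14.7 ± 1.24 and 17.4 ± 4.69 RPKM there (SD, n = 3).

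Places below the first depended in part on the length used. The deposited gene length was longer than the union of annotated exons in Gencode M21 for 8 of the 10 genes, most for *Relb* (20326 against 3885 bases, a ratio of 5.23) and *Nfkbiz* (ratio 3.39), and shorter for *Rela* (0.888) and *Nfkbie* (0.797). On deposited RPKM *Relb* was last in every group, with 3.07 ± 0.983 in WT-dimtdT and 3.15 ± 0.368 in AS-brighttdT (SD, n = 3). On the union length, an alternative added after seeing the data, it had 16.1 ± 5.14 and 16.5 ± 1.92 RPKM (SD, n = 3) and stood in place 10 in WT-dimtdT but 5 in AS-brighttdT. In WT-brighttdT *Nfkbiz* (64.4 ± 16.3 RPKM) then stood before *Rela* (43.9 ± 6.06 RPKM, SD, n = 3), and their ranges overlapped. In AS-brighttdT the ranges of the genes in places 5 to 10 on this scale each overlapped that of the next, so these neighbours did not differ beyond their spread, and *Rela* and *Nfkbiz* in places 2 and 3 overlapped too. In AS-dimtdT the first 6 places on the union length were set apart from each other (*Nfkbia*, *Nfkbie*, *Nfkbiz*, *Tnfaip3*, *Bcl3*, *Birc3*), and all 4 subunits came after them, but the lowest *Birc3* library did not clear the highest of *Rela* in place 7.

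**Figure D2:**
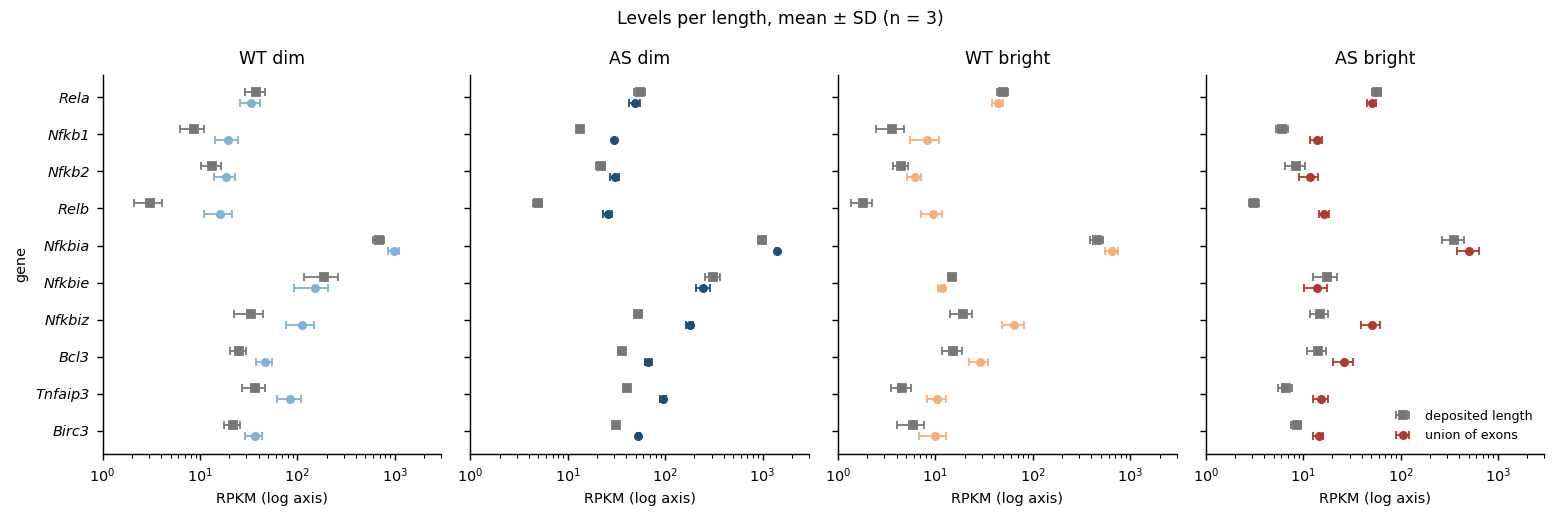
RPKM of each gene (log axis) in the 4 groups, on the deposited length (grey squares) and on the union of annotated exons (circles), mean ± SD of 3 libraries. *Nfkbia* lay farthest right in each group on both scales, and *Relb* and *Nfkbiz* moved most between the scales.

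The largest differences lay between the subpopulations. In AS mice, 9 of the 10 genes fell from the dimtdT to the brighttdT libraries, by 0.62 (*Relb*) to 4.13 (*Nfkbie*) on the log2 scale, and *Rela* did not pass (quasi-likelihood test of edgeR, Benjamini-Hochberg adjusted). Of all 14052 genes tested, 26.5% were lower and 55.1% changed in either direction. Every brighttdT library of these 9 genes lay below every dimtdT library, as in 30.5% of all genes. The median log2 fold change of the 10 genes was -1.40, beside 0.02 over all genes.

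In WT mice 5 of the 10 genes passed, all lower in brighttdT (*Nfkbie*, *Tnfaip3*, *Birc3*, *Nfkb2* and *Nfkb1*), where 11.5% of all 14247 genes tested were lower and 25.3% changed in either direction. The log2 fold changes ran from -3.72 to 0.35, with a median of -1.06 beside -0.04 over all genes. In 8 of the 10 the groups did not overlap on the scaling of that fit, as in 19.7% of all genes toward lower values. The dimtdT and brighttdT libraries of a mouse pair, and with the mouse as a replicate block 8 genes passed, where 15.1% of all genes were lower and 31.2% changed in that fit, *Nfkbia* (adjusted p = 0.0258), *Nfkbiz* (adjusted p = 0.0111) and *Bcl3* (adjusted p = 0.0444) being added, all by edgeR's quasi-likelihood test.

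The 8 leukocyte markers tested were all lower in brighttdT, their median on the log2 scale being -7.64 in WT mice and -7.41 in AS mice, and all 10 endothelial markers were higher. In bulk libraries a larger share of cells that transcribe a gene cannot be told apart from more of its RNA per cell. The immediate early and stress genes went the other way from the 9 genes, with 10 of 11 higher in brighttdT in WT and 9 of 11 in AS. Of 4 mesangial and mural markers tested, 2 were higher in WT and 4 in AS. Of 5 podocyte markers 4 were lower in WT, while 3 were higher and 1 lower in AS. No proximal tubule marker passed. The mitochondrial share of counts was 9.04% to 13.3% in WT-dimtdT and 2.59% to 5.60% in WT-brighttdT. In AS it was 3.58% to 8.22% and 2.82% to 5.88%. The part of any of these lists or shares in the result was not tested.

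Between genotypes, no gene of the 10 passed in either subpopulation. In the dimtdT libraries the log2 fold change of AS over WT was above 0 for all 10, from 0.06 (*Tnfaip3*) to 0.62 (*Nfkbie*), with a median of 0.49 beside -0.02 over all genes. Of all 14637 genes tested 8.63% passed. The unadjusted p was under 0.05 for 6 of the 10, as for 26.3% of all genes. In 8 of the 10 (not *Rela* and *Tnfaip3*) every AS library lay above every WT library, as in 15.0% of all genes. The smallest adjusted p was 0.108, for *Nfkbia* (edgeR's quasi-likelihood test).

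The same libraries differed in their markers. The macrophage and monocyte list (*Csf1r*, *Lyz2*, *Cd68* and *Adgre1*, with *Itgam* left out because its symbol stood on more than 1 row) summed to 2581 to 4575 CPM in WT-dimtdT and 6322 to 8438 CPM in AS-dimtdT, and 3 of its 4 genes rose. Of the 10 leukocyte markers 1 rose (*Csf1r*, which is also in the macrophage list) and 9 did not pass, with a median log2 fold change of 0.57. None of 5 T cell and 5 B cell markers passed, with medians of 0.16 and 0.07. Endothelial markers fell in 7 of 10 with a median of -2.20, proximal tubule markers fell in 5 of 10, podocyte markers fell in 2 and rose in 1 of 5, and the mitochondrial share of counts was 9.04% to 13.3% in WT-dimtdT and 3.58% to 8.22% in AS-dimtdT. Of 11 immediate early genes 1 rose (*Junb*). No mesangial and mural marker of 4 passed, with a median of -1.08 and an unadjusted p under 0.05 for 3 (edgeR's quasi-likelihood test). No marker of these lists passed without AS-dimtdT replicate 1 or 3, when 9 of 10 endothelial and 3 of 4 macrophage markers still had an unadjusted p under 0.05 (edgeR's quasi-likelihood test). With another library left out 4 to 9 endothelial markers fell and 1 to 4 macrophage markers rose. The part of these lists in the values of the 10 genes was not tested.

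In the brighttdT libraries 7 of the 10 genes had a log2 fold change of AS over WT above 0 and 3 below (*Nfkbia*, *Nfkbiz* and *Bcl3*), with a median of 0.37 beside -0.03 over all genes. Of all 14396 genes 0.452% passed. The unadjusted p was under 0.05 for 4 of the 10, as for 21.8% of all genes, and the groups did not overlap for 3 (*Nfkb1*, *Nfkb2* and *Relb*, all higher in AS), as for 13.6% of all genes toward higher values. None of the 10 endothelial, 7 tested leukocyte or 11 immediate early genes passed in this comparison by the same test, although 3, 2 and 3 of them had an unadjusted p under 0.05, and the leukocyte markers did not overlap between the groups in their sum (76.5 to 118 CPM against 144 to 173 CPM). No proximal tubule or podocyte marker passed either, but the unadjusted p was under 0.05 for 9 of 10 tubule markers, with a median log2 fold change of -2.59 over the 10, and for 4 of 5 podocyte markers, with a median of 0.95 over the 5. The podocyte markers summed to 160 to 227 CPM in WT-brighttdT and 280 to 412 CPM in AS-brighttdT. The tubule markers summed to 352 to 2322 CPM and 26.4 to 436 CPM, so that their sums overlapped. The part of these lists in the values of the 10 genes was not tested.

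**Figure D3:**
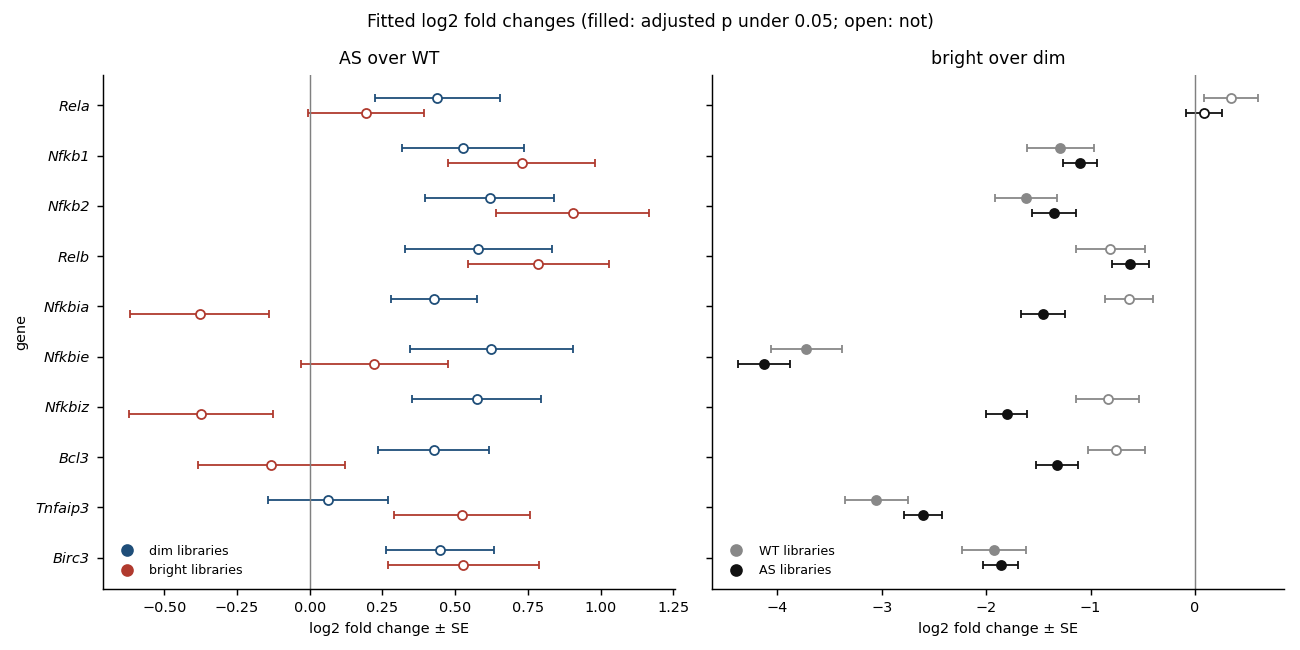
Log2 fold change ± SE of the 10 genes from edgeR's quasi-likelihood fits, AS over WT on the left and brighttdT over dimtdT on the right, with filled points where the adjusted p was under 0.05. In the comparison of genotypes every point is open, and in the comparison of subpopulations all but *Rela* lie left of 0.

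Of the subunits, *Rela* (chromosome 19, 5637483 to 5648130, plus strand) encodes p65, the main activating partner of canonical dimers. It had 83.6, 106 and 133 CPM in the 3 WT-dimtdT, 159, 130 and 157 CPM in the AS-dimtdT, 122, 122 and 153 CPM in the WT-brighttdT and 168, 138 and 171 CPM in the AS-brighttdT libraries. Each group overlapped another, but every WT-dimtdT library lay below every AS-brighttdT library. The log2 fold change of brighttdT over dimtdT was 0.35 (SE 0.26, adjusted p = 0.367) in WT and 0.09 (SE 0.17, adjusted p = 0.696) in AS by edgeR's quasi-likelihood test. The value for AS over WT was 0.44 in dimtdT and 0.19 in brighttdT, with adjusted p of 0.243 and 0.614.

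*Nfkb1* (chromosome 3, 135584655 to 135691547, minus strand, overlapped on the same strand by the unclassified gene *Gm43430*) encodes p105, the precursor of the p50 subunit. Its values were 173, 273 and 287 CPM in WT-dimtdT, 351, 364 and 363 CPM in AS-dimtdT, 71.4, 138 and 83.4 CPM in WT-brighttdT and 169, 144 and 193 CPM in AS-brighttdT. The AS libraries lay above the WT libraries in both subpopulations, and those of brighttdT below those of dimtdT in both genotypes. It fell from dimtdT to brighttdT by 1.29 on the log2 scale in WT (SE 0.32, adjusted p = 0.0168) and by 1.10 in AS (SE 0.17, adjusted p = 0.000294). The differences of AS over WT, 0.53 in dimtdT (adjusted p = 0.157) and 0.73 in brighttdT (adjusted p = 0.144), did not pass edgeR's quasi-likelihood test. The WT call was lost in 4 of 14 alternatives, each of them the omission of 1 library (highest adjusted p = 0.0761).

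*Nfkb2* and *Relb* encode p100, the precursor of p52, and RelB, the pair of the non-canonical route. For *Nfkb2* (chromosome 19, 46304320 to 46312385, plus strand, overlapped on the other strand by *Psd* and a non-coding gene) the 3 libraries had 69.6, 84.3 and 109 CPM in WT-dimtdT, 118, 147 and 148 CPM in AS-dimtdT, 29.1, 31.7 and 22.2 CPM in WT-brighttdT and 57.6, 64.0 and 41.1 CPM in AS-brighttdT. No group overlapped another. *Nfkb2* fell from dimtdT to brighttdT by 1.62 in WT (SE 0.30, adjusted p = 0.00382) and by 1.35 in AS (SE 0.21, adjusted p = 0.000398). For AS over WT the log2 fold change was 0.62 in dimtdT (SE 0.22, adjusted p = 0.119) and 0.90 in brighttdT (SE 0.26, adjusted p = 0.102), a 1.87-fold difference that did not pass edgeR's quasi-likelihood test but passed in DESeq2 (adjusted p = 0.0338).

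*Relb* (chromosome 7, 19606217 to 19629438, minus strand) had 45.0, 83.2 and 65.8 CPM in WT-dimtdT, 103, 88.7 and 105 CPM in AS-dimtdT, 30.8, 30.9 and 45.7 CPM in WT-brighttdT and 73.3, 58.3 and 63.0 CPM in AS-brighttdT. In each subpopulation the AS libraries lay above the WT libraries, while WT-dimtdT and WT-brighttdT overlapped by 1 library. The fall of 0.62 from dimtdT to brighttdT in AS passed (SE 0.17, adjusted p = 0.0123), and was lost in the fit of all 12 libraries (adjusted p = 0.0651). The log2 fold change of -0.81 in WT did not pass (adjusted p = 0.105). For AS over WT it was 0.58 in dimtdT (adjusted p = 0.189) and 0.78 in brighttdT (SE 0.24, adjusted p = 0.115), a 1.72-fold difference, by edgeR's quasi-likelihood test. DESeq2 called the latter, with an adjusted p of 0.0497.

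Among the IkappaB genes, *Nfkbia* (chromosome 12, 55489410 to 55492647, minus strand) encodes the inhibitor that is resynthesised first after a signal, and its promoter holds the match printed above. It had 1469, 1793 and 1664 CPM in WT-dimtdT, 2281, 2261 and 2236 CPM in AS-dimtdT, 847, 1047 and 1189 CPM in WT-brighttdT and 794, 631 and 1065 CPM in AS-brighttdT. The AS-dimtdT libraries were the highest and close to each other, and the WT- and AS-brighttdT libraries overlapped. It fell from dimtdT to brighttdT by 1.46 in AS (SE 0.21, adjusted p = 0.000249), and the log2 fold change of -0.63 in WT (SE 0.23, adjusted p = 0.0752) passed only with the block or in the fit of all 12 libraries. The log2 fold change of AS over WT was 0.43 in dimtdT (SE 0.15, adjusted p = 0.108) and -0.38 in brighttdT (SE 0.24, adjusted p = 0.384), all by edgeR's quasi-likelihood test.

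*Nfkbie* (chromosome 17, 45555703 to 45563169, plus strand) showed the largest difference between the subpopulations among the 10. Its values were 291, 485 and 648 CPM in WT-dimtdT, 678, 666 and 895 CPM in AS-dimtdT, 31.4, 35.3 and 38.2 CPM in WT-brighttdT and 36.6, 35.5 and 56.8 CPM in AS-brighttdT. The lowest dimtdT library thus stood far above the highest brighttdT library, and the genotypes overlapped in brighttdT only. The difference of -3.72 on the log2 scale in WT (SE 0.34, adjusted p = 8.92e-05) was a 13.2-fold difference and that of -4.13 in AS (SE 0.25, adjusted p = 4.18e-07) a 17.5-fold difference. For AS over WT it was 0.62 in dimtdT (adjusted p = 0.203) and 0.22 in brighttdT (adjusted p = 0.649), by edgeR's quasi-likelihood test.

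*Nfkbiz* (chromosome 16, 55811375 to 55838899, minus strand) and *Bcl3* encode atypical IkappaB proteins, which act in the nucleus on dimers bound to DNA. *Nfkbiz* had 427, 774 and 555 CPM in WT-dimtdT, 952, 835 and 886 CPM in AS-dimtdT, 231, 415 and 313 CPM in WT-brighttdT and 251, 312 and 207 CPM in AS-brighttdT. The WT-dimtdT libraries were spread widely and came close to the highest WT-brighttdT library. It fell from dimtdT to brighttdT by 1.80 in AS (SE 0.19, adjusted p = 2.93e-05), beside a log2 fold change of -0.84 in WT (SE 0.30, adjusted p = 0.0726). For AS over WT it was 0.57 in dimtdT (adjusted p = 0.146) and -0.38 in brighttdT (adjusted p = 0.408), by edgeR's quasi-likelihood test.

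*Bcl3* (chromosome 7, 19808462 to 19822770, minus strand, overlapped on the other strand by 2 antisense genes) lies on the same chromosome as *Relb*. It had 99.1, 120 and 140 CPM in WT-dimtdT, 163, 152 and 178 CPM in AS-dimtdT, 65.4, 56.1 and 85.2 CPM in WT-brighttdT and 65.4, 51.0 and 82.6 CPM in AS-brighttdT. The genotypes were apart in dimtdT and lay over each other in brighttdT. It fell from dimtdT to brighttdT by 1.32 in AS (SE 0.20, adjusted p = 0.000324), beside a log2 fold change of -0.75 in WT (SE 0.27, adjusted p = 0.0742), and AS over WT was 0.43 in dimtdT (adjusted p = 0.202) and -0.13 in brighttdT (adjusted p = 0.804), by edgeR's quasi-likelihood test.

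*Tnfaip3* (chromosome 10, 19000910 to 19015657, minus strand) encodes A20, a ubiquitin-editing enzyme that shuts off the signal upstream of IKK. It had 451, 729 and 729 CPM in WT-dimtdT, 695, 634 and 705 CPM in AS-dimtdT, 70.5, 60.7 and 91.6 CPM in WT-brighttdT and 132, 94.2 and 111 CPM in AS-brighttdT. In dimtdT the genotypes overlapped, with 1 low WT library, and both brighttdT groups lay far below. In brighttdT the genotypes were narrowly apart in these values and overlapped when scaled over the 6 brighttdT libraries. It fell by 3.05 in WT (SE 0.30, adjusted p = 0.000132), an 8.30-fold difference, and by 2.61 in AS (SE 0.18, adjusted p = 1.22e-06), a 6.08-fold difference. AS over WT was 0.06 in dimtdT (adjusted p = 0.881) and 0.52 in brighttdT (adjusted p = 0.227), by edgeR's quasi-likelihood test.

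*Birc3* (chromosome 9, 7848699 to 7873186, minus strand) encodes cIAP2, a ubiquitin ligase of the TNF receptor complex and a brake on the non-canonical route. Its libraries had 168, 169 and 232 CPM in WT-dimtdT, 255, 260 and 277 CPM in AS-dimtdT, 35.1, 67.9 and 42.9 CPM in WT-brighttdT and 70.9, 64.9 and 83.7 CPM in AS-brighttdT. The brighttdT genotypes overlapped by 1 WT library. It fell from dimtdT to brighttdT by 1.93 in WT (SE 0.30, adjusted p = 0.00166) and by 1.86 in AS (SE 0.17, adjusted p = 7.80e-06), and AS over WT was 0.45 in dimtdT (adjusted p = 0.168) and 0.53 in brighttdT (adjusted p = 0.264), by edgeR's quasi-likelihood test.

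**Figure D4:**
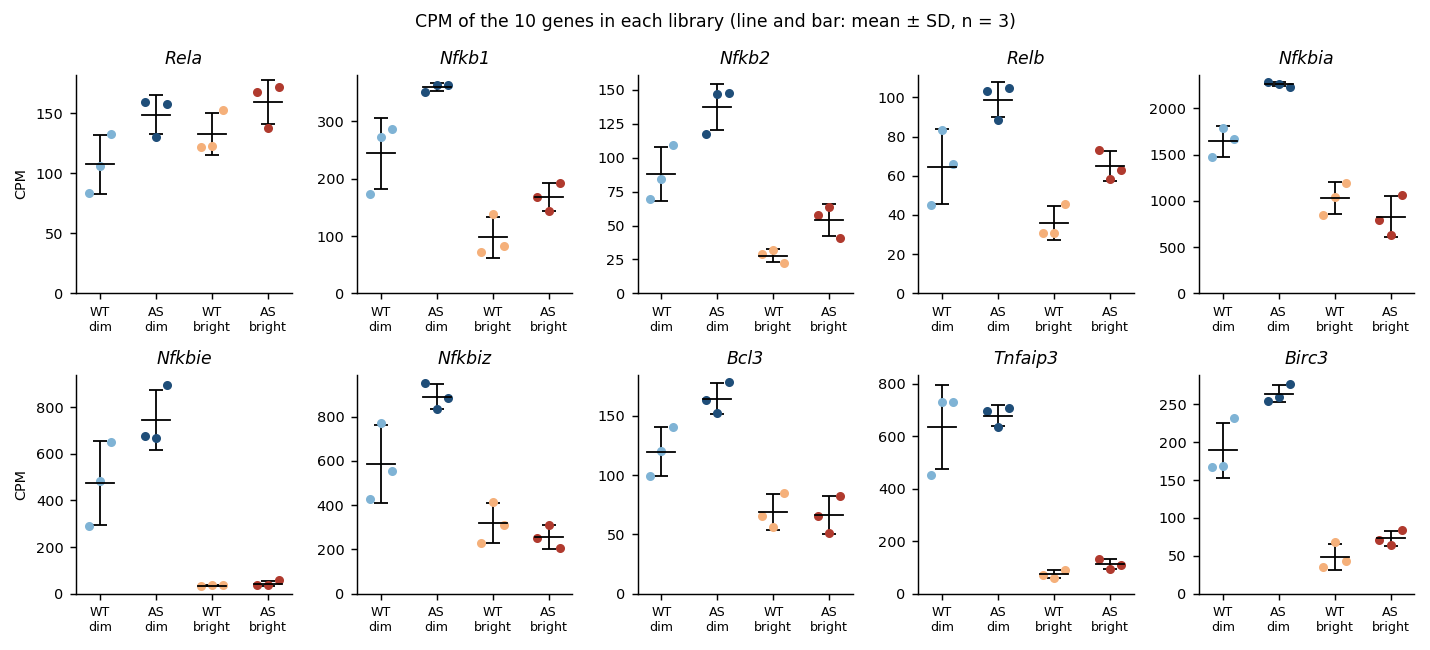
CPM of each of the 10 genes in the 12 libraries, 1 point per library, with the mean ± SD of each group (linear axes from 0). *Nfkbie* and *Tnfaip3* are near the axis in brighttdT compared with dimtdT. The groups of *Rela* overlap in part, with every WT-dimtdT library below every AS-brighttdT library.

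To ask whether the effect of genotype differed between the subpopulations, the interaction was tested in all 12 libraries. No gene of the 10 passed, where 3.77% of all 15084 genes did. The unadjusted p was under 0.05 for 2 of the 10, as for 18.5% of all genes, and these were *Nfkbiz* and *Nfkbia*. *Nfkbiz* had a log2 difference of -0.92 (AS over WT in brighttdT minus that in dimtdT, SE 0.37, adjusted p = 0.194) and *Nfkbia* one of -0.77 (SE 0.30, adjusted p = 0.183), by edgeR's quasi-likelihood test. The highest value was that of *Tnfaip3*, 0.50 (SE 0.32, adjusted p = 0.449). The median of the 10 was -0.05 beside 0.13 over all genes.

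Among themselves, the 9 genes other than *Rela* followed each other over the 12 libraries, with a Pearson r of log2 CPM between 0.626 and 0.981 (median 0.866, 36 pairs). Pairs with *Rela* had r between -0.198 and 0.385 (9 pairs). The libraries of a group share their subpopulation and genotype, and once each group mean was taken off, the median r was 0.371 in the 36 pairs and 0.580 in the 9 pairs with *Rela*. These are descriptions, and the points share library and depth.

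**Figure D5:**
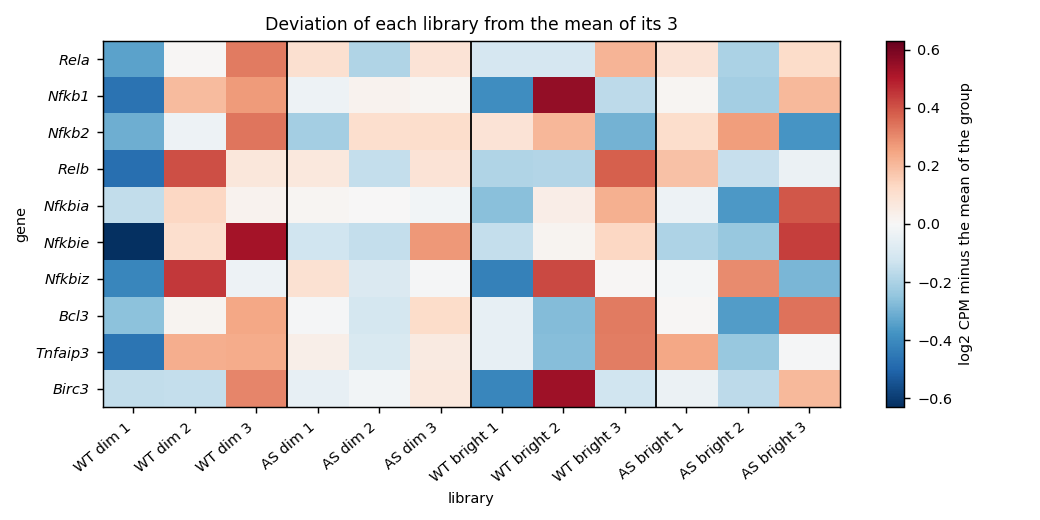
Log2 CPM of each gene in each library minus the mean of its group, blue below and red above it. WT-dimtdT replicate 1 is below its group mean in all 10 genes, from -0.16 for *Nfkbia* to -0.63 for *Nfkbie*.

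WT-dimtdT replicate 1 lay below the mean of its group in all 10 genes, with a median of -0.37 on the log2 scale. WT-dimtdT replicate 3 was below in 1 gene and replicate 2 in 2. Without replicate 1 the median log2 fold change of AS over WT in dimtdT went from 0.49 to 0.37 and *Tnfaip3* turned from 0.06 to -0.13. The leukocyte sum of this library (8468 CPM) lay between those of the other WT-dimtdT libraries (7292 and 12160 CPM). Its proximal tubule markers summed to 5500 CPM against 1279 and 1414 CPM in the other two, and its mitochondrial share of counts was the highest of the 3 (range 9.04% to 13.3%). Its podocyte markers summed to 423 CPM against 688 and 939 CPM. The part of these values in the result was not tested.

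The genes with the most similar pattern were sought among 15074 genes by Pearson r of log2 CPM over the 12 libraries, as a description. *Diaph1* and *Thbs1* were most like *Nfkbie* (r = 0.996 and 0.995), *Crem* and *Osm*, the gene of oncostatin M, most like *Tnfaip3* (0.994 and 0.994), and *Fmnl1* and *Soat1* most like *Birc3* (0.995 and 0.988). *C230096K16Rik* and *Gm16549* followed *Nfkbia* (0.990 and 0.968), *Ifrd1* and *Xlr4a* followed *Nfkbiz* (0.990 and 0.975), and *Bin3* followed *Bcl3* (0.975). For the subunits these were *Rnf19b* and *Camkk2* with *Nfkb1* (0.973 and 0.972), *Cyb5r4* and *Mapkapk2* with *Nfkb2* (0.976 and 0.974), *Smndc1* and *Cdv3* with *Relb* (0.964 and 0.947), and *Ostf1* and *Tifa* with *Rela* (0.912 and 0.912). With group means taken off, the highest of these r was that of *Nfkbiz* and *Ifrd1* (0.983) and the lowest that of *Nfkb2* and *Mapkapk2* (0.610).

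Of 76 further genes of the pathway, listed by role, 69 could be tested between the subpopulations. In AS 16 were higher and 31 lower in brighttdT, beside 28.6% and 26.5% of all genes. In WT 12 were higher and 19 lower, beside 13.8% and 11.5% of all genes. Of the 5 other subunits and IkappaB genes 3 were lower in AS and 2 in WT, and the rest did not pass. *Rel*, the gene of c-Rel, a subunit known from lymphoid and myeloid cells, had 219, 366 and 326 CPM in WT-dimtdT and 11.1, 17.3 and 20.1 CPM in WT-brighttdT, a log2 fold change of -4.19 (SE 0.34, adjusted p = 4.08e-05 by edgeR's quasi-likelihood test), and in AS the fold change was -4.76 (SE 0.27, adjusted p = 3.05e-07). *Nfkbid*, of IkappaBNS, was lower by 1.24 and 1.90 on that scale.

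Of 10 further negative regulators 6 were lower in AS and 4 in WT and none higher, led by *Tnip3* (log2 fold change -8.59 and -7.31) and the deubiquitinase gene *Cyld* (-2.04 and -1.61). Of 5 ligands tested 3 were lower and 2 higher in AS, and 2 lower and 1 higher in WT. *Il1b* (-7.67 in AS and -7.32 in WT) and *Tnf* (-3.10 and -3.49) were lower in both genotypes. *Lta*, *Ltb*, *Tnfsf11* and *Cd40lg*, ligands of lymphoid cells, were listed in the dimtdT table alone, as was the receptor gene *Tnfrsf13c*, while *Ccl20* was in neither table. The dimtdT levels of these ligands were low, with group means of 0.72 to 3.24 CPM for *Cd40lg*, *Tnfsf11* and *Ltb*. *Lta* had a mean of 12.5 CPM in WT-dimtdT and 1.80 CPM in AS-dimtdT. Of the IKK complex and upstream kinases 5 of 11 were lower and 1 higher in AS, and 3 lower and 1 higher in WT, with *Ikbke*, of the IKK-related kinase IKKε, at -3.99 and -5.27 and *Map3k14*, the NIK kinase of the non-canonical route, at -3.06 and -2.63. Among 15 adaptors and ubiquitin ligases tested 7 were lower in AS and 2 in WT, with *Traf1* at -6.30 and -6.56.

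Of 7 receptors tested 4 were higher and 1 lower in AS, and 2 higher and 1 lower in WT. *Il1r1*, the IL-1 receptor, was higher in brighttdT by 4.06 in AS and 2.87 in WT on the log2 scale, and *Tnfrsf1b*, TNF receptor 2, had a log2 fold change of -5.90 and -6.21. Of 16 targets tested 9 were higher and 6 lower in AS, and 8 higher and 5 lower in WT. The endothelial adhesion gene *Sele* was higher by 6.17 in AS, and the prostaglandin synthase gene *Ptgs2* had a log2 fold change of -4.58 there. In WT the chemokine gene *Ccl5* had 64.3, 67.2 and 47.7 CPM in dimtdT and 4, 1 and 6 counts in brighttdT, a log2 fold change of -7.83, and *Cxcl2* one of -4.91. *Ccl2* in WT-brighttdT and *Ccl5* in AS-brighttdT were at or under 3 counts in every library, against 5.90 to 7.28 CPM and 90.4 to 103 CPM in the dimtdT libraries of the same genotype.

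Between genotypes, 6 of 75 pathway genes tested rose in AS-dimtdT and none fell, beside 2.21% and 6.42% of all genes. They were *Tnfrsf1a*, the TNF receptor 1 gene (log2 fold change 1.28, adjusted p = 0.0217), *Map3k14* (1.20, adjusted p = 0.0248), *Tnip3* (1.06, adjusted p = 0.0255), *Nfkbid* (1.04, adjusted p = 0.0434), *Ikbkb*, of the IKKβ kinase (0.78, adjusted p = 0.0321) and *Gadd45b* (0.75, adjusted p = 0.0339), by edgeR's quasi-likelihood test. *Map3k14* had 42.6, 62.0 and 70.6 CPM in WT-dimtdT and 148, 140 and 123 CPM in AS-dimtdT. In the brighttdT libraries 2 of 65 rose, beside 0.188% of all genes, *Sele* (log2 fold change 1.90, adjusted p = 0.0291) and *Il1a*, of the cytokine IL-1α (1.81, adjusted p = 0.0345). Both also passed the interaction test, at 2.48 (adjusted p = 0.0376) and 2.31 (adjusted p = 0.0474), which 67 of 69 pathway genes did not pass, beside 3.77% of all genes called in either direction and 2.96% higher. With edgeR's version 3 fit neither passed, with adjusted p of 0.0517 (*Sele*) and 0.0558 (*Il1a*) in brighttdT and 0.0646 and 0.0682 for the interaction, and in AS-dimtdT 5 of the 6 remained, without *Nfkbid* (adjusted p = 0.0627). The calls depended on single libraries. Of the 6 in AS-dimtdT none passed without AS-dimtdT replicate 1 or 3 (lowest adjusted p = 0.113 in both, with an unadjusted p under 0.05 for 16 and 18 of the 75), 2 remained without AS-dimtdT replicate 2, and 3, 1 and 6 without WT-dimtdT replicates 1, 2 and 3. Without WT-dimtdT replicate 2 the calls were 4 higher and 2 lower in AS. *Sele* and *Il1a* in brighttdT were lost without WT-brighttdT replicate 3 or AS-brighttdT replicate 1 or 3. Both passed the interaction in 1 of 12 omissions, that of WT-dimtdT replicate 1, and 1 of them in 2 more.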

How the data were processed

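RNA-seq of cells sorted as dimtdT and brighttdT, both labelled GEC, covered 3 WT and 3 AS mice. Sequences were aligned by the authors to GRCm38.p5 (Gencode M16) with STAR 2.6.0c, and they deposited raw counts per gene in 1 table for each subpopulation. The kit was strand-specific, and which strand was counted is not given in the sources used here. The deposited RPKM values rest on these counts, a gene length given in the table and an effective library size, and were used for the order of levels only. The tables also hold the authors' own edgeR statistics of AS over WT (log2 fold change, logCPM, likelihood ratio, p-value, FDR), which were not used.

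Counts were tested with edgeR 4.0.16 in R 4.3.3 (version 4 quasi-likelihood fit, TMM, filterByExpr, Benjamini-Hochberg over all genes tested, threshold 0.05), without ERCC spike-ins. AS over WT used the 6 libraries of a table, brighttdT over dimtdT the genes in both tables, and the interaction all 12 libraries. Scripts were tested on simulated data. Symbols on more than 1 row were left out of marker lists. Alternatives were DESeq2 1.42.0, edgeR's likelihood ratio test and version 3 fit, RLE or no scaling factors, every gene with a count, 1 fit of all 12 libraries, a replicate block and each library left out. The version 4 fit was set as the main one after the calls of both fits had been seen, so that the version 3 fit, like the union exon length, is an alternative added after seeing the data. The union exon length came from Gencode M21.

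The 10 genes, the pathway lists and the markers were chosen with earlier results of these data known. Named were all 10 genes, *Col4a5*, at most 3 called genes without overlap per pathway list and comparison (those with the largest log2 fold change, not all printed), genes absent from a table, and for each of the 10 the 2 genes with the highest Pearson r over 12 libraries. Some genes that this rule names are not reported here.

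The mouse number in the sample labels pairs dimtdT with brighttdT libraries. Deviations from the group means correlated across genes within a mouse (mean r 0.197 in WT, 0.213 in AS) more than between mice (-0.098 and -0.105) on average. In WT every pair of a mouse (0.102 to 0.274) lay above every pair between mice, and in AS they overlapped (0.0796 to 0.385 against -0.286 to 0.189). WT and AS mice share only a number. Replicates differed by a chi-square per degree of freedom of 29.5 to 104, so that each was kept as its own sample. The p-values of AS over WT within a subpopulation measure the spread between these mice. In the main fits of brighttdT over dimtdT and of the interaction, the libraries of a mouse were taken as independent. Those p-values measure the spread between libraries with the pairing left out.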

Additional observations from a re-analysis of the deposited data

How the results depend on the processing

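For AS over WT in dimtdT and for the interaction, no gene of the 10 passed under any alternative run. In brighttdT DESeq2 called 2 (*Nfkb2* and *Relb*) and the other alternatives none. For brighttdT over dimtdT in WT, 9 passed in the fit of all 12 libraries, 8 with the mouse as a replicate block, and 4 to 7 with 1 library left out (7 without WT-dimtdT replicate 1, and 4, *Nfkb1* being lost, without WT-dimtdT replicate 2 or 3 or WT-brighttdT replicate 1 or 3). The share of all genes called lower was 11.5%, and 17.5% with all 12 libraries, 15.1% with the block and 7.33% to 11.1% with 1 library left out. The cause was not tested. In AS 8 to 9 passed throughout, and 20.9% to 27.6% of all genes were lower. The signs that turned were those of values near 0. *Tnfaip3* in dimtdT had a log2 fold change of AS over WT of -0.13 without WT-dimtdT replicate 1 (-0.13 to 0.17 over libraries left out). *Bcl3* in brighttdT had 0.019 without WT-brighttdT replicate 3 and 0.033 without AS-brighttdT replicate 2 (-0.34 to 0.033), and *Nfkbie* had -0.043 without AS-brighttdT replicate 3 (-0.043 to 0.35). *Rela* for brighttdT over dimtdT in AS had -0.027 without AS-dimtdT replicate 2 (-0.027 to 0.14). The interaction of *Birc3* had -0.049 with library sizes alone, and -0.056, -0.025 and -0.074 without WT-dimtdT replicate 3, AS-dimtdT replicate 2 and WT-brighttdT replicate 1 (-0.074 to 0.43). With the union exon length 6, 6, 5 and 7 genes took another place in the order of levels in WT-dimtdT, WT-brighttdT, AS-dimtdT and AS-brighttdT.

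The number of all genes called for brighttdT over dimtdT in WT was 3604, and 2534 to 5207 over the alternatives. For AS over WT in dimtdT it was 1263, and 2213 with DESeq2, 1946 with the likelihood ratio test, 2106 with all 12 libraries, 582 with the version 3 fit, 494 with the replicate block (WT and AS mice share only a number) and 0 to 1825 with 1 library left out (786 and 800 without WT-dimtdT replicates 1 and 2, and 0, 484 and 1 without AS-dimtdT replicates 1, 2 and 3). In brighttdT it was 65, and 1117, 827, 139, 0 and 16 in the same order, 39 with every gene with a count, and 0 to 281 with 1 library left out (0 without replicate 3 of WT or replicates 1 or 3 of AS, 274 to 281 otherwise). For the interaction it was 569, and 1186 with DESeq2, 1114 with the likelihood ratio test, 877 with the replicate block and 252 to 857 with 1 library left out. With 3 mice a group, a p that missed the threshold does not show that levels were alike.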

Other observations

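Within a library the ratio of 2 genes does not depend on the scaling between libraries. As a description chosen after the values were seen, the log2 ratio of counts to *Rela* was taken for the other 9 genes. For *Nfkbie* it was 2.09 ± 0.26 in WT-dimtdT, 2.32 ± 0.21 in AS-dimtdT, -1.92 ± 0.11 in WT-brighttdT and -1.92 ± 0.30 in AS-brighttdT (SD, n = 3). For *Tnfaip3* it was 2.56 ± 0.19, 2.19 ± 0.08, -0.85 ± 0.15 and -0.51 ± 0.15 in the same order (SD, n = 3). *Nfkbia* kept more counts than *Rela* in every group, with 3.95 ± 0.27, 3.93 ± 0.16, 2.95 ± 0.15 and 2.36 ± 0.24 (SD, n = 3), the lowest being that of AS-brighttdT. *Relb* had -0.75 ± 0.35 and -0.59 ± 0.04 in WT- and AS-dimtdT, and -1.90 ± 0.14 and -1.30 ± 0.13 in WT- and AS-brighttdT (SD, n = 3). No test was run on these ratios.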
